A study of Homo sapiens with 8 samples.

Results

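The baseline expression state of DAOY cells was described from the 3 arrays that carried no MXD3 plasmid, out of 8 arrays in the series. They were chosen by their labels alone. Of these 3, 2 came from stable lines transfected with the empty plasmid pHM6, numbered 1 and 2 by the study, and 1 came from the parental cell line. Vector lines were put under 800 µg/ml of G418, an antibiotic that kills cells lacking the plasmid's resistance gene. No selection is named for the parental cells. The other 5 arrays came from stable lines carrying pHM6-MXD3 under the same selection, and they appear here only where detection is set beside them. The labels do not say whether each numbered line was 1 clone or a pool, and all 8 samples share the DAOY background. Where 2 values are given with the empty vector, they are of vector line 1 and then of vector line 2. Each sample was read on 1 array, so the SD given below is the spread over 3 arrays of 2 kinds (vector and parental) and not a replicate error of a single group.

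DAOY is an established human line derived from a medulloblastoma, an embryonal tumour of the cerebellum. Medulloblastomas are sorted into a WNT, an SHH, a Group 3 and a Group 4 subgroup. In the SHH subgroup the Hedgehog pathway is active in cells related to the granule neuron precursors of the cerebellum, which carry the transcription factor ATOH1. In that pathway a secreted ligand relieves the block that the receptor PTCH1 puts on SMO, and GLI transcription factors then switch on targets such as GLI1, PTCH1 and HHIP.

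Each probe of the array has an intensity and a detection p-value, the share of negative control probes at least as bright. The arrays named 16578 genes through 19715 of 22184 probes, and 14306 of the genes had 1 probe. A gene was called detected where at least 1 probe was below 0.01 on all 3 arrays, and undetected where every probe had 0.05 or more on all 3. By this rule 9791 genes were detected, 59.1% of all genes, and 4225 were undetected, 25.5% of all genes. The remaining 2562 genes (15.5%) fell between these classes. Of the 1593 detected genes with more than 1 probe, 971 had at least 1 probe that was not detected on all 3 arrays. Among genes named below, MXI1 was detected through 1 of 4 probes, and MYCL, MITF, OAS1 and NR2E3 through 1 of 3. HOXC6, HOXC4, TFAP2A, CDKN1A, EYA1 and PRAME were each detected through 1 of 2 probes. Levels are log2 normalized intensities of the brightest detected probe. They had a median of 9.78 over the detected genes, with means from 6.05 to 16.01, and a median of 5.03 over the undetected genes. The 3 arrays were close in depth of signal, with mean intensities of 1419.5 and 1409.7 on the vector arrays and 1488 on the parental array, and with 10498, 10516 and 10415 genes below 0.01.

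At the edge of the detected class stood HOPX, MTO1 and NTMT1, each with a highest detection p-value of 0.00867 on its best probe. Just outside it were TMED8 and TMTC1 with 0.0101 and CCDC7 with 0.0115. At the edge of the undetected class, ACTN3, BLID and BPIFB4 had lowest detection p-values of 0.0503, while CEP97, COL24A1 and GARIN2 fell outside it with 0.0491. Genes on the 2 sides of an edge had levels that overlapped, 6.05 to 7.82 for the first 3 and 6.02 to 6.85 for the next 3. A probe that reads nothing does not show that a transcript is missing. RPL10, a component of the large ribosomal subunit that every dividing cell uses, was undetected through its single probe at 4.92 and 5.06 with the empty vector and 4.96 in parental DAOY. The same held for the single probes of EIF4E, the protein that binds the mRNA cap, and of PDIA3, a disulfide isomerase of the endoplasmic reticulum.

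Ribosomal proteins, the cytoskeleton and a matrix protein gave the brightest signals. Of the 30 brightest genes, 15 encode cytosolic ribosomal proteins, 4 belong to the list of actins, tubulins and their binding proteins, and 3 belong to the list of translation factors. RPL6, RPS16, EEF1A1 and RPL11 led the ranking, with means of 16.01, 16.01, 16.01 and 16.003. EEF1A1 is the elongation factor that delivers aminoacyl-tRNA to the ribosome, and the other three are ribosomal proteins. Among the first 10, TGFBI and VIM were the 2 genes outside protein synthesis. TGFBI encodes a secreted matrix protein induced by TGF-beta, and it read 15.99 and 15.97 with the empty vector and 16.004 in parental DAOY. VIM encodes vimentin, the intermediate filament protein of mesenchymal cells, and it read 15.91 and 15.93 with the empty vector and 15.90 in parental DAOY. The rest of the 30 were RPL38, RPS29, RPL9, RPS10, CLEC2D, ACTB, TUBA1B, RPS14, TMSB10, EIF4A1, RPS25, H4C3, RPS19, ATP5F1B, TUBA1C, RPS6, OAZ1, RPS15A, RPL5, ENO1, RPS18, RPL8, TPT1 and PRDX1.

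The order among these 30 is an order of probe signals and not of transcript numbers, since probes differ in how well they bind. Their means spanned only 15.57 to 16.01, and the highest intensities before normalization were 66524 and 65214 on the vector arrays and 67085 on the parental array. Quantile normalization gives each rank the same value on every array, so small differences at the top are differences in rank. Within the 30, H4C3, a replication-dependent histone H4 gene, and RPS6 had the widest ranges. H4C3 read 15.61 and 15.82 with the empty vector and 15.94 in parental DAOY. RPS6 read 15.89 and 15.81 with the empty vector and 15.57 in parental DAOY. The entry of CLEC2D, a C-type lectin of immune cells, rests on 1 of its 3 probes. That probe averaged 15.89, another read 10.99 and 11.22 with the empty vector and 11.56 in parental DAOY, and the third was not detected on any of the 3 arrays. The cause of the difference between these probes was not tested.

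**Figure D1:**
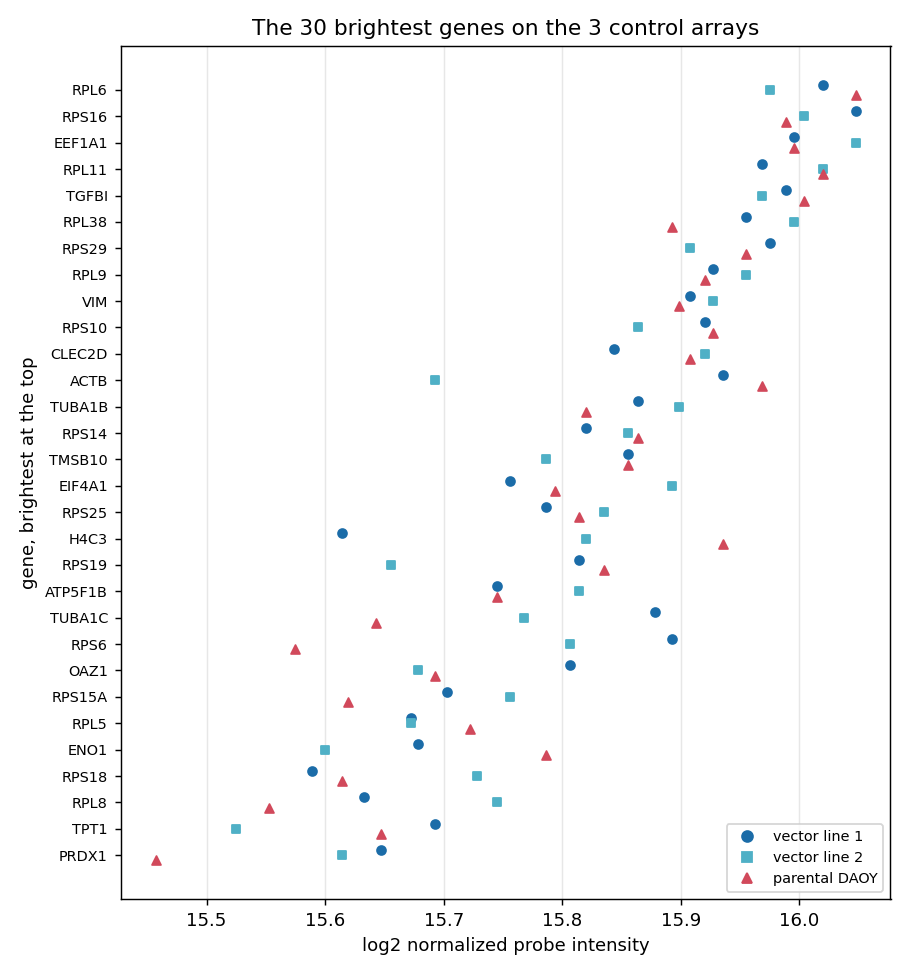
Log2 normalized intensity (horizontal axis) of the 30 brightest detected genes, ordered by their mean with the brightest at the top. Each marker is 1 array: circles and squares are vector lines 1 and 2, triangles are the parental cells. All values lie between 15.46 and 16.05, and the markers of neighbouring genes overlap.

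The annotated transcription starts of these genes are shown because many share one feature. Transcripts of ribosomal proteins and translation factors often begin with a TOP sequence, a C followed by a run of C and T, through which their translation is tied to nutrient signalling. RefSeq promoters of GRCh38.p14, 250 bases before and 50 after the annotated start, were matched by gene symbol for 13410 of the 16578 genes. A TOP-type start was scored where the start base was C and the next 4 bases were each C or T, read on the transcript's strand only. Such a start was found in 465 of 8219 promoters of detected genes (5.66%), in 103 of 3217 promoters of undetected genes (3.20%), and in 4.04% of all 27305 promoters in the table. Of the 23 matched promoters among the 30 brightest genes, 10 had one (43.5%). Of the 51 matched promoters of detected ribosomal proteins, 34 had one (66.7%), as did 12 of 25 detected translation factors (48%). The stretches below run from 30 bases before the start to 10 from it, 5′ to 3′, with the 5 scored bases in capitals. They are the 6 brightest genes with a TOP-type start.
RPS16 (chr19:39435940-39435979, minus strand): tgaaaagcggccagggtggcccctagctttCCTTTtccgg
EEF1A1 (chr6:73521023-73521062, minus strand): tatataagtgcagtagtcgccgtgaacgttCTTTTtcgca
RPL38 (chr17:74203648-74203687, plus strand): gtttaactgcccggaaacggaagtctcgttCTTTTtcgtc
RPS10 (chr6:34426060-34426099, minus strand): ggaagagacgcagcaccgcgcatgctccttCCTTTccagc
RPS14 (chr5:150449730-150449769, minus strand): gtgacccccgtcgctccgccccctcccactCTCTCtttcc
RPS25 (chr11:119018334-119018373, minus strand): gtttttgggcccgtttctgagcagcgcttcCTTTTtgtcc

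The 4 brightest matched genes whose annotated start is not of this type are shown for comparison, with no capitals. TGFBI is the one of them that is not a ribosomal protein. A start annotated a few bases away from the one used in these cells would miss the feature, and no file here records the starts used.
RPL6 (chr12:112411433-112411472, minus strand): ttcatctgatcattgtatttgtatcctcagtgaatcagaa
RPL11 (chr1:23691749-23691788, plus strand): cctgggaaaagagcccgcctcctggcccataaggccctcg
TGFBI (chr5:136028958-136028997, plus strand): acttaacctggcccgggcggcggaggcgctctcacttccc
RPS29 (chr14:49598701-49598740, minus strand): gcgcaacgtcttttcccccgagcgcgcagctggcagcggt

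The 40 gene lists used below held 888 genes, of which 792 were measured. The plot of list shares sets their detection beside that of all genes. It runs from lists with every member detected, such as glycolysis, to skeletal muscle, where 1 of 15 members was detected.

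**Figure D2:**
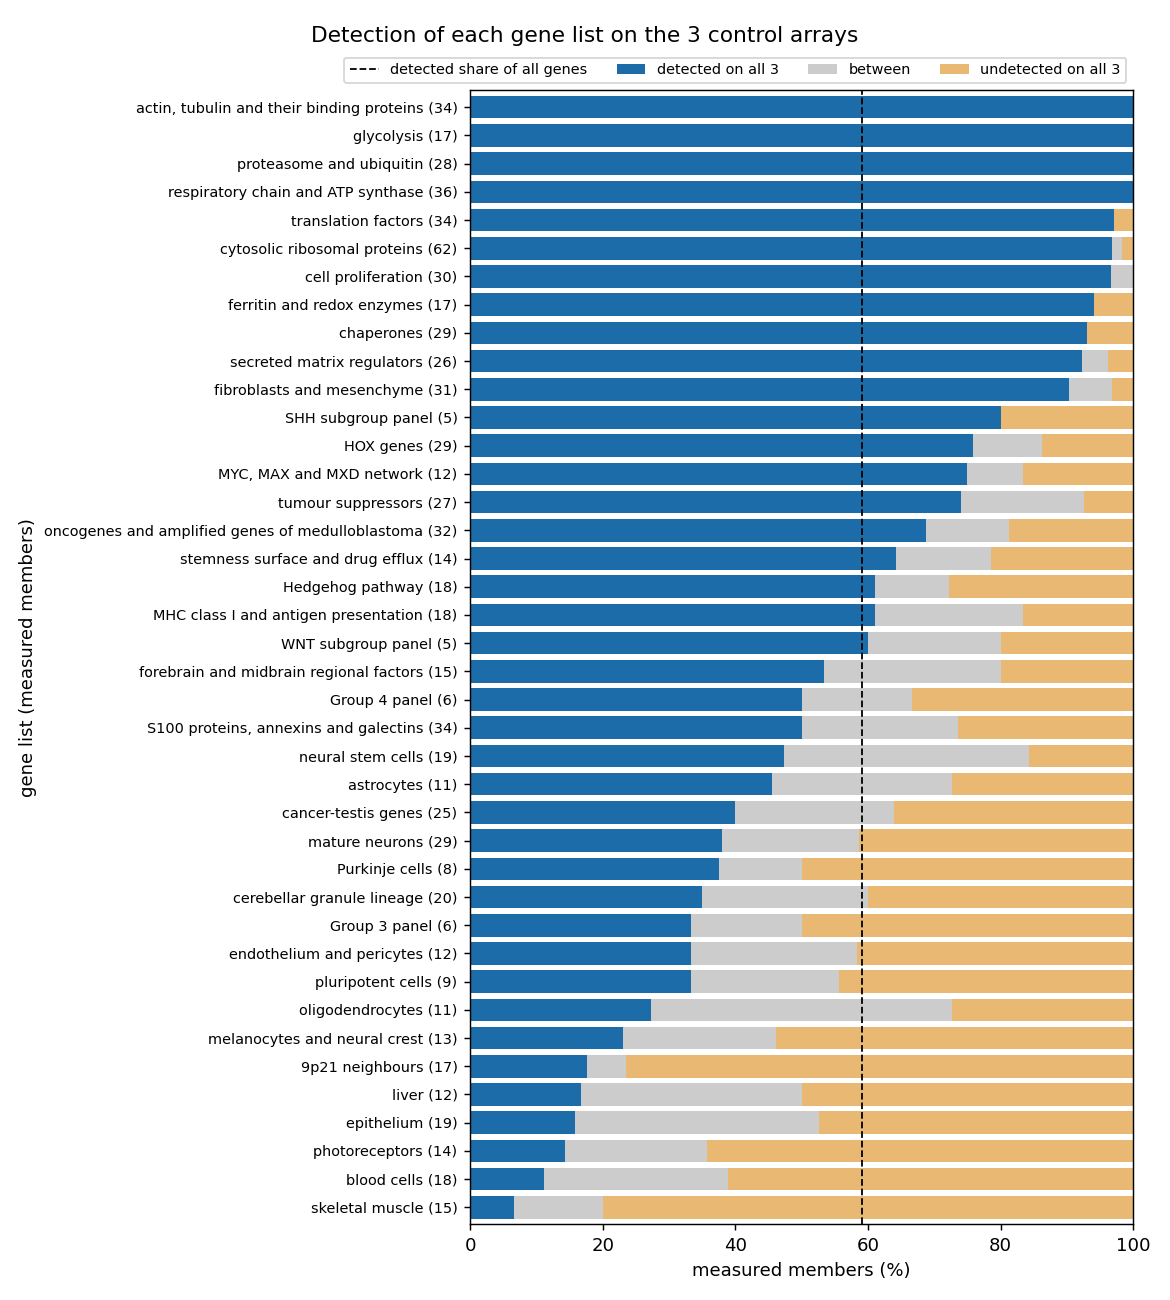
Share of measured members (horizontal axis, percent) of each of 40 gene lists that were detected on all 3 control arrays (blue), undetected on all 3 (yellow) or between these classes (grey), with the number of measured members in brackets. The dashed line is the detected share of all 16578 genes, 59.1%. Lists of housekeeping machinery and mesenchyme lie above the line and lists of differentiated tissues mostly below it.

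Genes of fibroblasts and mesenchyme were nearly all detected. Of 31 measured members 28 were detected (90.3%, against 59.1% of all genes), with a median of 11.26 over those detected, and 1 was undetected. Beside TGFBI and VIM, the surface receptor for hyaluronan CD44 read 15.18 and 14.53 with the empty vector and 14.86 in parental DAOY. COL6A3, a chain of type VI collagen, read 14.64 and 14.45 with the empty vector and 13.92 in parental DAOY. LOX, the oxidase that crosslinks collagen, read 14.38 and 13.68 with the empty vector and 14.02 in parental DAOY, and COL5A1 stayed within 13.97 to 14.05 on the 3 arrays. The undetected member was CNN1, a calponin of smooth muscle, at 4.73 ± 0.08 (SD, n = 3 arrays).

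Secreted regulators of the matrix had 24 of 26 measured members detected (92.3%, against 59.1% of all genes). CCN2, a matricellular growth factor, read 14.73 and 13.80 with the empty vector and 14.59 in parental DAOY. SERPINE2, THBS1 and TIMP1, which restrain proteases or bind the matrix, averaged 14.13, 13.75 and 13.78. PLAU, the urokinase protease, was lower in vector line 2, at 12.03, than in vector line 1 (13.34) or parental DAOY (13.39). MMP3, a stromelysin, was the undetected member. The median SD over the detected members of this list was 0.42, against 0.20 over all detected genes.

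Few markers of differentiated epithelium were detected, 3 of 19 (15.8%, against 59.1% of all genes). They were the keratins of simple epithelia KRT18 and KRT8 and the transcription factor ELF3. KRT18 read 14.52 and 14.46 with the empty vector and 15.04 in parental DAOY, and KRT8 read 12.02 and 11.66 with the empty vector and 11.97 in parental DAOY. Their relatives KRT19, KRT5 and KRT14 were undetected, as were the junction protein CLDN4, the epithelial splicing factors ESRP1 and ESRP2, the transcription factor GRHL2 and the GTPase RAB25.

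The granule lineage of the cerebellum was detected in part. Of 20 measured members 7 were detected (35%) and 8 were undetected (40%), against 59.1% and 25.5% of all genes. ZIC2, a zinc finger factor of the dorsal neural tube, was the brightest at 10.94 and 11.10 with the empty vector and 10.97 in parental DAOY. The transcription factor PAX6 read 8.75 and 8.66 with the empty vector and 8.65 in parental DAOY. RELN, the secreted guide of neuronal migration, read 9.76 and 9.66 with the empty vector and was lower in parental DAOY at 8.42. CADPS2, MEIS1 and TLX3 had means of 8.95, 7.90 and 7.88. The remaining detected member, EN2, averaged 7.67 and was named after its values were seen. The undetected members were ATOH1, ZIC1, BARHL1, NEUROD6, CNTN2, GABRA6, CBLN1 and ETV1. Among these, ATOH1 specifies the lineage, and GABRA6 and CBLN1 mark mature granule neurons. ATOH1 read 5.00 and 5.32 with the empty vector and 5.12 in parental DAOY, with a lowest detection p-value of 0.19.

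Neural stem cell genes gave 9 detected (47.4%) and 3 undetected (15.8%) of 19 measured members, against 59.1% and 25.5% of all genes. BMI1, a Polycomb protein that keeps stem cells dividing, read 13.03 and 12.87 with the empty vector and 12.76 in parental DAOY. LIN28B, which blocks the maturation of let-7 microRNAs, read 11.17 and 11.70 with the empty vector and 11.13 in parental DAOY. MSI2, HES1, SOX9 and POU3F2 followed with means of 10.73, 9.79, 9.47 and 7.69. The remaining detected members, NR2E1, PAX3 and the progenitor factor SOX2, averaged 6.76, 6.53 and 6.31 and were named after their values were seen. NES, an intermediate filament gene of neural progenitors, was undetected through its single probe. It read 4.74 and 4.85 with the empty vector and 4.78 in parental DAOY. HES5, a Notch target, and POU3F3 were undetected too, and HES5 differed from NES in reading below 0.01 on 4 of the 5 MXD3 arrays.

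Mature neuronal genes were split between detected and undetected members in similar numbers. UCHL1, a ubiquitin hydrolase abundant in neurons, read 14.68 and 14.36 with the empty vector and 14.25 in parental DAOY. TUBB3, the beta-tubulin of neurons, read 12.11 and 11.94 with the empty vector and 12.01 in parental DAOY. ENO2, GAD1, NEFL and SCG2 had means of 9.55, 9.31, 9.04 and 8.44. The remaining detected members, named after their values were seen, were MAP2, SNAP25, CHGB, SYT1 and NEFM. Their means were 7.21, 7.02, 6.96, 6.68 and 6.47. In all 11 of 29 measured members were detected (37.9%) and 12 were undetected (41.4%), against 59.1% and 25.5% of all genes. The undetected ones included SYP of synaptic vesicles, the neuronal splicing factor RBFOX3, the migration protein DCX, the growth cone protein GAP43, INA, and the glutamate transporters SLC17A7 and SLC17A6. GAD2, which makes the same transmitter as GAD1, was undetected as well.

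Markers of other brain cells were mixed. Of 11 astrocyte genes 5 were detected (45.5%) and 3 were undetected (27.3%), against 59.1% and 25.5% of all genes. In the astrocyte list GJA1, the gap junction protein connexin 43, read 12.61 and 12.48 with the empty vector and 12.98 in parental DAOY, while AQP4, S100B and ALDH1L1 were undetected. SLC1A3, FGFR3, ALDOC and NDRG2 averaged 7.97, 7.14, 8.54 and 7.03. GFAP, SLC1A2 and GLUL, named after their values were seen, fell between the classes. Of 11 oligodendrocyte genes 3 were detected (27.3%, against 59.1% of all genes), namely OLIG1, OLIG2 and CSPG4. OLIG2 varied, with 7.84 and 6.64 with the empty vector and 8.29 in parental DAOY. CNP, MOBP and OPALIN, products of myelinating cells, were undetected. The Purkinje cell list had ITPR1, CA8 and HOMER3 detected and PCP2, CALB1, PCP4 and SLC1A6 undetected. These were 3 (37.5%) and 4 (50%) of 8 measured members.

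The 4 subgroup panels are short lists of genes by which medulloblastomas are assigned. Of the SHH panel 4 of 5 genes were detected. SFRP1, a secreted WNT inhibitor, read 11.26 and 10.98 with the empty vector and 10.98 in parental DAOY. PDLIM3 read 9.34 and 9.38 with the empty vector and 9.67 in parental DAOY. HHIP, which binds and holds back Hedgehog ligands, read 9.01 and 8.77 with the empty vector and 9.31 in parental DAOY, and EYA1 read 8.24 and 9.02 with the empty vector and 7.99 in parental DAOY. ATOH1 was the undetected gene of this panel. Of the WNT panel 3 of 5 were detected: TNC, a matrix glycoprotein, at 12.40 and 12.38 with the empty vector and 11.40 in parental DAOY, GAD1, and EMX2 at a mean of 7.39. WIF1, a WNT inhibitor that marks WNT tumours, was undetected, and DKK2 was detected on 2 of the 3 arrays.

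Of the Group 3 panel 2 of 6 genes were detected. EYS read 8.17 and 8.19 with the empty vector and 8.48 in parental DAOY, and GABRA5, a GABA receptor subunit, averaged 6.86 ± 0.14 (SD, n = 3 arrays). NRL, a photoreceptor transcription factor, MAB21L2 and NPR3 were undetected, and IMPG2 was detected on 1 array. Of the Group 4 panel 3 of 6 were detected: RBM24 at 8.59 and 7.71 with the empty vector and 7.75 in parental DAOY, EOMES at 7.71 ± 0.03 and OAS1 at 7.00 ± 0.15 (SD, n = 3 arrays). KCNA1 and KHDRBS2 were undetected, and UNC5D was detected on 2 arrays. With 5 or 6 genes a panel, the detected counts of 2 to 4 lie at most 2 genes apart, and no subgroup was assigned. Of all genes 59.1% were detected.

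Of 18 measured members of the Hedgehog pathway 11 were detected (61.1%), near the 59.1% of all genes, and 5 were undetected. SHH, IHH and DHH, which encode the 3 ligands, were all undetected, with SHH at 5.04 and 4.89 with the empty vector and 4.93 in parental DAOY. HHAT, which adds palmitate to the ligands, and DISP1, which releases them, were detected with means of 7.76 and 7.83. Among coreceptors, GAS1 read 10.93 and 10.36 with the empty vector and 10.47 in parental DAOY and BOC averaged 8.71 ± 0.27 (SD, n = 3 arrays), while CDON was undetected at a mean of 4.59. SMO, the transducer, read 9.65 and 9.35 with the empty vector and 9.17 in parental DAOY.

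Of the transcription factors, GLI3, the main repressor form, read 11.11 and 11.03 with the empty vector and 10.17 in parental DAOY. GLI2, the main activator, read 7.71 and 7.77 with the empty vector and 7.55 in parental DAOY. SUFU, which holds GLI proteins in the cytoplasm, averaged 6.86 ± 0.54 (SD, n = 3 arrays), and KIF7 and GPR161, both tied to the cilium, averaged 7.86 and 7.03. Among the targets, GLI1 was undetected at 5.05 and 5.04 with the empty vector and 5.16 in parental DAOY, while HHIP was detected as given above. PTCH1, receptor and target at once, read 6.47 and 6.63 with the empty vector and 5.43 in parental DAOY, where it was not detected. PRKACA, the catalytic subunit of protein kinase A, fell between the classes.

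**Figure D3:**
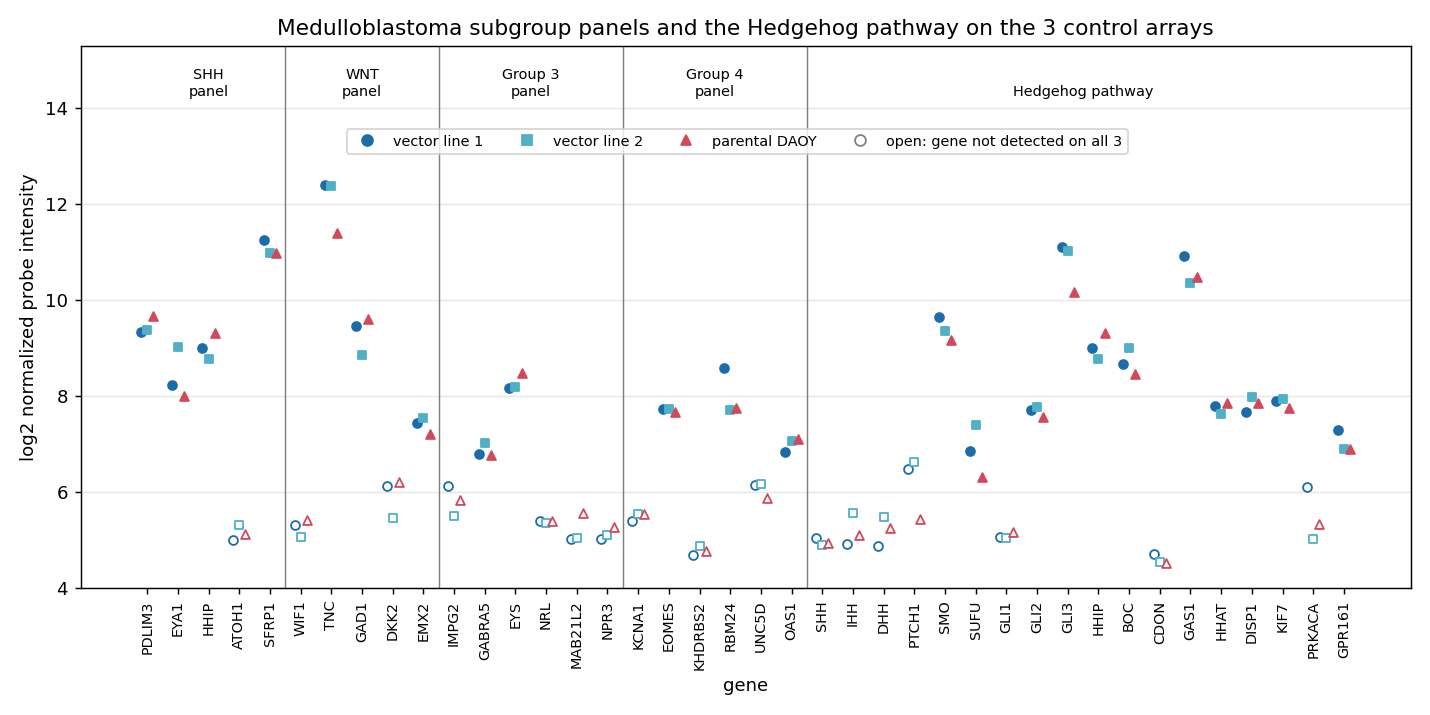
Log2 normalized intensity (vertical axis) of every measured gene of the 4 medulloblastoma subgroup panels and of the Hedgehog pathway (horizontal axis) on the 3 control arrays. Filled markers are genes detected on all 3 arrays and open markers are the other genes. The 3 Hedgehog ligands and GLI1 lie near 5, and GLI3, GAS1 and SMO lie above 9.

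Of 32 measured genes in the list of medulloblastoma oncogenes 22 were detected (68.8%), against 59.1% of all genes. The brightest was CCND1. CCND1, the cyclin that opens the G1 phase, read 14.65 and 13.93 with the empty vector and 14.16 in parental DAOY. Its partner kinases CDK4 and CDK6 read 13.60 and 13.35 in vector line 1, 13.85 and 12.61 in vector line 2, and 13.87 and 12.64 in the parental cells. CCND3 held within 13.14 to 13.20 on the 3 arrays, and YAP1, the effector of Hippo signalling, averaged 12.25 ± 0.16 (SD, n = 3 arrays). The 6 undetected members were MYCN, GFI1B, ERBB4, KIT, KDR and IGF2. Proliferation genes were detected in 29 of 30 cases with none undetected. CDC20 and MCM7, which act in mitosis and in replication licensing, read 15.01 and 15.04 in vector line 1, 15.08 and 14.97 in vector line 2, and 15.06 and 15.08 in the parental cells.

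The network of MYC, MAX and the MXD proteins, the setting in which MXD3 acts, had 9 of 12 members detected. This was 75%, against 59.1% of all genes. MYC read 12.19 and 12.18 with the empty vector and 11.98 in parental DAOY, and MYCL averaged 8.50. MYCN, amplified in many medulloblastomas, was undetected at 5.26 and 5.35 with the empty vector and 5.04 in parental DAOY. MAX, the partner of all of these, read 9.10 and 9.13 with the empty vector and 9.86 in parental DAOY. Among the repressors that compete with MYC for MAX, MNT and MXD4 were the brightest with means of 9.67 and 9.48. MXD1, MXI1 and MXD3 averaged 8.48, 7.35 and 6.74, so the endogenous MXD3 signal was near the lower end of the detected range. MLX averaged 6.47, MLXIP was undetected and MLXIPL fell between the classes.

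Tumour suppressor genes were detected in 20 of 27 cases (74.1%, against 59.1% of all genes). SMARCA4, the ATPase of the SWI/SNF chromatin remodeller, read 12.86 and 13.32 with the empty vector and 13.29 in parental DAOY. DDX3X, an RNA helicase mutated in medulloblastoma, read 12.87 and 12.85 with the empty vector and 12.52 in parental DAOY. ARID1A, SMARCB1 and BCOR, all chromatin regulators, averaged 12.58, 11.49 and 11.01. CDKN1A, the inhibitor of cyclin-dependent kinases induced by p53, read 12.14 and 11.69 with the empty vector and 12.05 in parental DAOY. The undetected members were the histone methyltransferase KMT2D and the INK4 inhibitor CDKN2B.

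The second of these lay in a stretch of the short arm of chromosome 9 where almost no probe read above background. This region, 9p21, holds the INK4 cell cycle inhibitors CDKN2A and CDKN2B, the methylthioadenosine salvage enzyme MTAP and the type I interferon cluster, and it is often deleted in tumours. Positions are those of RefSeq on GRCh38.p14. From FOCAD (start 20655625) to LINC03106 (end 26118408) the arrays measured 26 genes, of which 24 were undetected and 1 was detected. Of all genes 25.5% were undetected and 59.1% detected. The ends of the stretch were drawn from these values, as the outermost undetected genes between the detected MLLT3 and CAAP1. Its high undetected share follows in part from that choice and is a description only. MTAP (chr9:21802636-21941115) read 4.78 and 4.81 with the empty vector and 4.73 in parental DAOY. CDKN2B (chr9:22002903-22009313) read 5.05 and 5.12 with the empty vector and 5.09 in parental DAOY. CDKN2A (chr9:21967752-21995324) had 3 probes, and 1 of them fell between the classes with a detection p-value of 0.0405 in the parental cells, at 5.39 and 5.27 with the empty vector and 5.70 in parental DAOY.

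Interferon genes are silent in most unstimulated cells, and all 16 measured in the region were undetected, with means from 4.76 to 5.36. Apart from these, 8 of 10 genes of the stretch were undetected. They were FOCAD, KLHL9, MTAP, CDKN2B, DMRTA1, ELAVL2, TUSC1 and LINC03106. FOCAD and KLHL9 encode a focal adhesion protein and a ubiquitin ligase adaptor. The exception was HACD4, an enzyme of fatty acid elongation that lies between FOCAD and the interferon genes, with 10.19 and 10.31 with the empty vector and 10.12 in parental DAOY. HACD4, LINC03106, CAAP1 and the interferon genes other than IFNB1, IFNW1, IFNA5, IFNA2 and IFNE were chosen after their values were seen.

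By the choice of its ends, the next measured gene on both sides of the stretch was detected on all 3 arrays. MLLT3, on the telomeric side of FOCAD, read 9.40 and 9.44 with the empty vector and 9.62 in parental DAOY. On the centromeric side CAAP1 averaged 7.60 ± 0.23, PLAA 11.13 ± 0.01 and IFT74 10.95 ± 0.05 (SD, n = 3 arrays), and LRRC19, inside IFT74, was undetected. Farther out, SLC24A2 and ACER2 beyond MLLT3 and EQTN beyond IFT74, named after their values were seen, were undetected too. The 18 measured genes from IFNB1 to MTAP were the longest run of consecutive undetected genes on any chromosome but Y, which was not searched. Of these 18 genes, 16 were the interferon genes given above, and the others were KLHL9 and MTAP. The next longest run, 15 genes from KRT12 to KRTAP4-1 on chromosome 17, holds keratin genes of skin and hair. Runs of 14 held olfactory receptors on chromosomes 1 and 11, and another run of 14, from CLECL1 to TMEM52B, lay on chromosome 12. By a looser count, genes not detected on all 3 arrays, 24 genes from IFNB1 to LINC03106 formed a run that 5 others equalled or exceeded, led by 56 genes on chromosome 11. On the 5 MXD3 arrays 25 of the 26 genes of the stretch were detected on none. Of all 4225 genes undetected in the controls, 93.2% were below 0.01 on no MXD3 array. The arrays measured RNA and not DNA copy number.

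**Figure D4:**
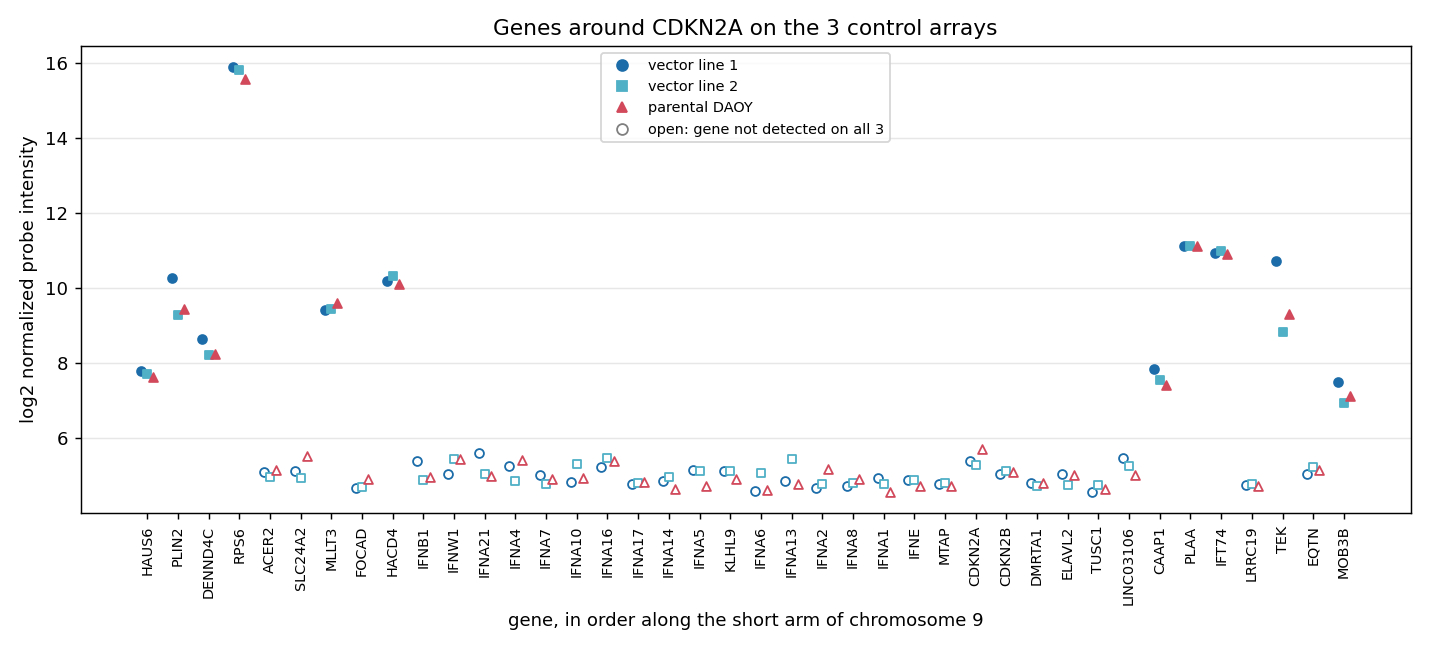
Log2 normalized intensity (vertical axis) of the measured genes around CDKN2A in their order along the short arm of chromosome 9 (horizontal axis) on the 3 control arrays. Filled markers are genes detected on all 3 arrays and open markers are the other genes. Between MLLT3 and CAAP1 only HACD4, near 10.2, rises above the level of about 5.

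HOX genes give position along the body axis and are silent in the developing cerebellum. Of 29 measured HOX genes 22 were detected (75.9%, against 59.1% of all genes), with a median of 10.001 over those detected, and 4 were undetected. The measured genes came from all 4 clusters: 1 of 1 was detected in cluster A, 7 of 10 in cluster B, 6 of 9 in cluster C and 8 of 9 in cluster D. HOXC6 was the brightest with 11.95 and 11.99 with the empty vector and 11.95 in parental DAOY. HOXC4 read 11.39 and 11.53 with the empty vector and 10.93 in parental DAOY, HOXA2 read 10.96 and 10.77 with the empty vector and 11.33 in parental DAOY, and HOXB2 averaged 10.83. HOXB7 and HOXD11 averaged 10.54 and 10.53.

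HOXC13 and HOXD13, named after their values were seen, sit at the ends of their clusters and act in the most caudal tissues. They averaged 10.02 ± 0.10 and 10.29 ± 0.26 (SD, n = 3 arrays), while their neighbours HOXC11, HOXC12 and HOXD12 were undetected. HOXB1 was undetected at the other end of its cluster, with a mean of 5.39. Adjacent HOX genes can share transcripts, and a probe reads only the stretch it was designed on. The median SD over the detected HOX genes was 0.17, against 0.20 over all detected genes.

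**Figure D5:**
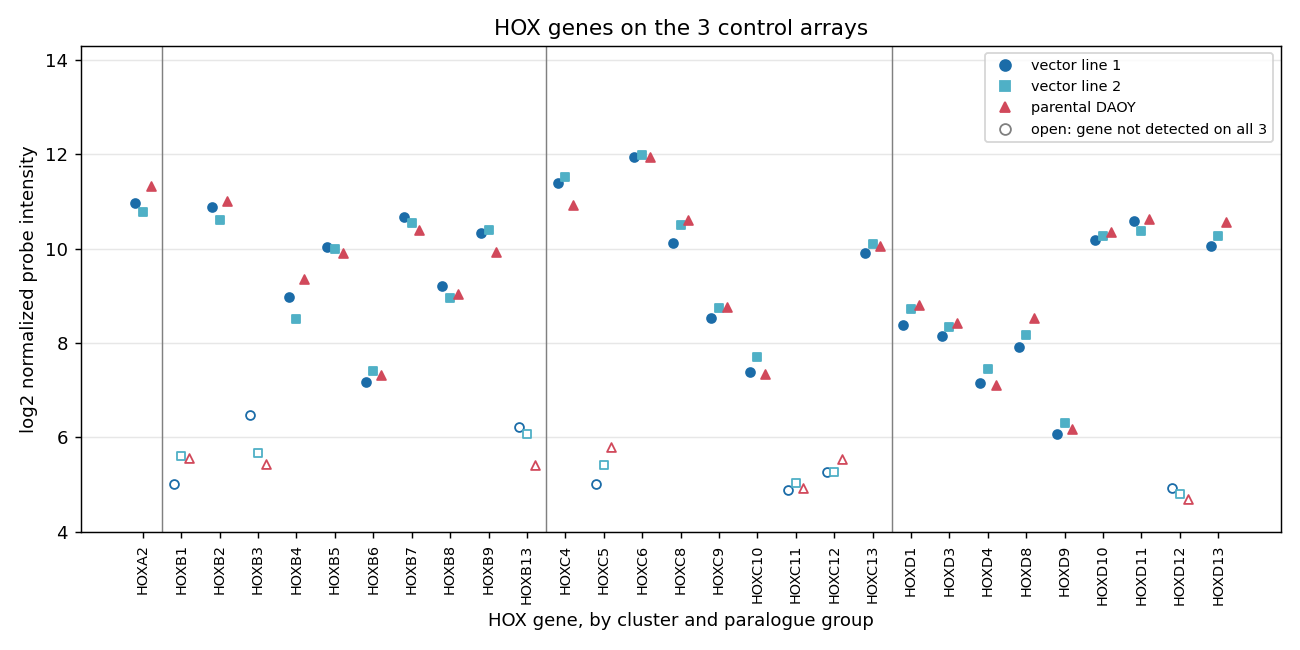
Log2 normalized intensity (vertical axis) of the 29 measured HOX genes on the 3 control arrays, ordered by cluster A to D and by paralogue group (horizontal axis). Filled markers are genes detected on all 3 arrays and open markers are the other genes. HOXC6 is highest at about 12, and HOXB1, HOXC11, HOXC12 and HOXD12 lie near 5.

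Regional factors of the forebrain and midbrain were detected in 8 of 15 cases (53.3%), near the 59.1% of all genes. DLX1, a factor of forebrain interneurons, read 10.83 and 10.88 with the empty vector and 10.77 in parental DAOY. LHX2 varied more, with 9.82 and 9.13 with the empty vector and 10.40 in parental DAOY. NKX2-2, DLX5 and NKX2-1 averaged 9.16, 9.26 and 8.27, while EMX1, SIX6 and RAX were undetected.

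Several genes normally kept to the germ line or to the early embryo were detected. Of 25 measured cancer-testis genes 10 were detected (40%, against 59.1% of all genes) and 9 were undetected. PAGE5 read 14.12 and 14.34 with the empty vector and 14.25 in parental DAOY, which placed it among the 500 brightest genes. MAGEB2 read 12.69 and 12.04 with the empty vector and 11.13 in parental DAOY. SPA17, a sperm surface protein, MAGEC1, PRAME and MAGEA3 averaged 11.80, 11.39, 11.26 and 10.20. MAGEA10, CTAG1B, SSX1 and XAGE2 were undetected, as were the germ cell genes BRDT, SYCP1, DAZL and DDX4. Members of the MAGE and PAGE families are near copies of each other, so their probes may share signal. Among pluripotency genes ZFP42 read 11.04 and 12.18 with the empty vector and 11.30 in parental DAOY, DPPA4 averaged 10.68 and DPPA2 7.04, while LIN28A, SALL4, DNMT3L and GDF3 were undetected.

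Of 15 skeletal muscle genes 12 were undetected (80%), against 25.5% of all genes, among them the determination factors MYOD1, MYOG, MYF5 and MYF6 and the contractile genes MYH1, MYH8 and ACTC1. MYH3, the embryonic myosin heavy chain, was the detected member, at 6.90 and 6.30 with the empty vector and 6.50 in parental DAOY. Of 18 blood cell genes 11 were undetected (61.1%), including CD3D of T cells, MS4A1 and CD79A of B cells, CD14 and LYZ of monocytes and HBB of red cells. CORO1A and ITGB2 were detected with means of 7.95 and 6.88. Of 14 photoreceptor genes 9 were undetected, CRX and NRL among them, with PDE6B and NR2E3 detected. In the liver list 6 of 12 genes were undetected, including ALB, TTR and APOB, 2 were detected and 4 fell between the classes. SERPINA1, the alpha-1 antitrypsin gene, read 11.93 and 11.004 with the empty vector and 11.13 in parental DAOY. AFP was detected as well, with a mean of 7.496.

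Endothelial and melanocyte lists had smaller detected shares than all genes. Of 12 endothelial and pericyte genes 4 were detected (33.3%) and 5 were undetected (41.7%). Of 13 melanocyte and neural crest genes 3 were detected (23.1%) and 7 were undetected (53.8%). The shares of all genes were 59.1% and 25.5%. PECAM1, CDH5, KDR, ESAM and EMCN were undetected, yet the angiopoietin receptor TEK read 10.73 and 8.83 with the empty vector and 9.32 in parental DAOY, and TIE1, ENG and EGFL7 were detected with means of 9.11, 9.54 and 7.13. TFAP2A, a factor of the neural crest, read 10.48 and 11.14 with the empty vector and 10.51 in parental DAOY. TYRP1 and MITF of pigment cells averaged 8.45 and 7.97, while TYR, MLANA, NGFR, TFAP2B, DBH, TH and HAND2 were undetected.

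Promoters of undetected genes differed in composition from those of detected genes. The median ratio of observed to expected CpG in the 300 bases was 0.848 for detected and 0.360 for undetected genes. The letters TATAAA, searched on both strands in the 50 bases before the start, were found in 195 of 8219 promoters of detected genes (2.37%), in 282 of 3217 promoters of undetected genes (8.77%), and in 3.76% of all promoters in the table. This window does not overlap the bases scored for a TOP-type start. In the 100 brightest genes 9 of 86 matched promoters held TATAAA (10.5%), and in the 30 brightest none of 23 did. The lineage lists did not show the contrast of all genes. Their detected members held TATAAA in 8 of 77 matched promoters (10.4%) and their undetected members in 6 of 70 (8.57%). The genes span a median of 30633 bases if detected and 16990 bases if undetected. These shares describe annotated sequence, and a match is not a measured binding site. The stretches of 45 bases up to the start are printed for undetected lineage genes that hold TATAAA on the transcript's strand. These letters are in capitals, and the detected lineage genes that hold them are not printed.
ACTC1 (chr15:34795550-34795594, minus strand): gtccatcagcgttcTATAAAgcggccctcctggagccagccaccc
CYP3A4 (chr7:99784185-99784229, minus strand): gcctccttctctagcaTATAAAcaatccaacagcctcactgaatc
MYF5 (chr12:80716867-80716911, plus strand): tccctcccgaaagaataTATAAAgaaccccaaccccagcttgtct
MYF6 (chr12:80707589-80707633, plus strand): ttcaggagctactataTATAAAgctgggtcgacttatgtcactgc
MYH1 (chr17:10518543-10518587, minus strand): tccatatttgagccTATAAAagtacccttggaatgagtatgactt
RBFOX3 (chr17:79658976-79659020, minus strand): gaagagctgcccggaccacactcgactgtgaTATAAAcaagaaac

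The remaining lists describe the general machinery of the cell. All 36 measured genes of the respiratory chain and ATP synthase, all 34 of the actin and tubulin list, all 28 of the proteasome and ubiquitin list and all 17 of glycolysis were detected. Among the glycolytic enzymes ENO1 averaged 15.69, GAPDH 15.56 and LDHA 14.91. ATP5F1B, the catalytic beta subunit of ATP synthase, averaged 15.77, and PSMC1, an ATPase of the proteasome cap, averaged 15.44. Of 29 chaperones 27 were detected (93.1%, against 59.1% of all genes). HSPA8 led them at 15.38 and 15.15 with the empty vector and 15.73 in parental DAOY. CRYAB, a small heat shock protein, was undetected beside PDIA3.

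Ferritin and redox enzymes were detected in 16 of 17 cases, with PRDX1 at 15.57, FTL at 15.37 and SOD1 at 15.08, and with AKR1C1 undetected. In the list of S100 proteins, annexins and galectins 17 of 34 members were detected (50%, against 59.1% of all genes). LGALS1, the galectin of mesenchymal cells, read 15.42 and 15.03 with the empty vector and 14.96 in parental DAOY, and ANXA1, S100A10 and S100A6 averaged 14.63, 14.43 and 14.12. Undetected members included S100A1, S100A7, S100A12, S100B, S100P, LGALS2, LGALS4 and LGALS7. S100A2, LGALS3 and S100A8 were named after their values were seen. The first 2 were detected with means of 10.27 and 10.75, and S100A8 fell between the classes. Of antigen presentation, B2M read 14.76 and 14.57 with the empty vector and 14.54 in parental DAOY, and HLA-B, HLA-E and TAP1 averaged 11.51, 11.46 and 11.93. CIITA, the switch of MHC class II genes, HLA-DRB1 and NLRC5 were undetected. HLA-DPA1, another class II gene, named after its values were seen, was detected at 7.88 and 8.43 with the empty vector and 8.49 in parental DAOY. HLA genes vary between people, and a probe may bind some alleles better than others.

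Surface and efflux markers used to define stem-like tumour cells gave 9 detected of 14 (64.3%), near the 59.1% of all genes. NT5E, an ectonucleotidase, averaged 12.26, NCAM1 10.27 and CD24 10.34. ALDH1A3, an aldehyde dehydrogenase, read 9.60 and 9.42 with the empty vector and 11.30 in parental DAOY. ABCG2, ALDH1A1 and ITGA6 were undetected.

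The 3 arrays gave close levels for most detected genes. Pairs of arrays correlated across the 9791 genes at r = 0.976 to 0.980, a description over genes that share array and normalization. The median SD over the 3 arrays was 0.198, 65.8% of detected genes had a range under 0.5, and 648 genes (6.62%) had a range of 1 or more. Those with a range of 2 or more numbered 52. The SD of the log2 difference was 0.419 between the vector lines, 0.452 between line 1 and parental DAOY and 0.420 between line 2 and parental DAOY. The narrowest ranges among the 500 brightest genes belonged to ODC1, SUMO2, SF3B6, HNRNPAB and TXN, from 0.009 to 0.016. ODC1, the first enzyme of polyamine synthesis and a MYC target, read 13.69, 13.69 and 13.70.

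Of the 10 genes with the widest ranges, the first was CXCL8. CXCL8, a neutrophil chemokine, read 13.91 and 9.22 with the empty vector and 10.87 in parental DAOY. CXCL1, of the same family, followed the same order with 13.72 and 9.11 with the empty vector and 10.19 in parental DAOY. Vector line 1 was highest for both. CGB8 and CGB5, copies of the chorionic gonadotropin beta gene, ran the other way. CGB8 read 8.20 and 10.19 with the empty vector and 12.61 in parental DAOY. CGB5 read 8.21 and 10.08 with the empty vector and 12.47 in parental DAOY, and probes may not tell these near-identical genes apart. PLEK2 was low in vector line 2 alone, at 6.43, while vector line 1 read 9.72 and parental DAOY 10.02. LCP1, an actin-bundling protein, was highest in vector line 2 at 12.76.

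FST, the activin inhibitor, and CLDN1, a tight junction protein, were highest in vector line 1 and lowest in the parental cells, with ranges of 3.53 and 3.54. TAGLN3 was high in vector line 1 alone, at 9.89, while vector line 2 read 6.58 and parental DAOY 6.43. RNA28SN5, a ribosomal RNA gene, read 14.63 and 14.59 with the empty vector and 11.40 in parental DAOY. It was the one gene of these 10 whose vector lines lay close together and apart from the parental array. With 1 parental array, such a difference cannot be told apart from a difference between single samples.

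The state described here was largely shared by the MXD3 lines. Of the 9791 genes detected in the controls, 9417 (96.2%) were below 0.01 on all 5 MXD3 arrays and 8 on none. Of the 4225 undetected genes, 3938 (93.2%) were below 0.01 on no MXD3 array and 1 on all 5. That gene was DYSF, the muscle membrane repair protein dysferlin, which read 5.93, 6.14 and 6.96 (lowest, median and highest) in the MXD3 lines and 5.38 and 5.22 with the empty vector and 5.57 in parental DAOY. The brightest genes detected in the controls and on no MXD3 array were SLC19A3, STK32A, OR1L8, HPCAL4, BDKRB2 and LRRC71. SLC19A3, a thiamine transporter, had a lowest, median and highest level of 4.97, 5.24 and 5.84 in the MXD3 lines, and read 6.55 and 6.49 with the empty vector and 7.17 in parental DAOY. All 7 genes lay near the detection limit, and no test was made of these differences.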

How the data were processed

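RNA of 8 DAOY samples was read on Illumina bead arrays, and the 3 control arrays are described here. The authors deposited an intensity per probe on a linear scale, with no background subtracted, and beside it the detection p-value, per the file headers. A second deposited table, judged from its values, holds the same intensity after subtraction of a constant and scaling per array. The submitters' processing notes name BeadStudio without a version, and its settings are not given in the sources used here.

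All 8 arrays went through the neqc function of limma 3.58.1 in R 4.3.3 with an offset of 16: the detection p-values gave the negative control distribution, the background was removed, and quantile normalization and log2 followed. Summaries used Python 3.11.15 and pandas 2.3.3. The detection classes were tested on simulated data. Of 22184 probes 2469 had no symbol in the platform annotation. Entrez IDs of 20 genes were not in the RefSeq table of GRCh38.p14. A detected gene is given by its brightest probe detected on all 3 arrays, and other genes by their brightest probe.

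No test and no group comparison was made. The number of arrays limits the precision. The genes and 40 gene lists were chosen with earlier results of these data known. The text names the 30 brightest genes, all members of the subgroup panels, the Hedgehog pathway, the 9p21 list and the MYC network, and of each other list up to 6 brightest detected and up to 8 undetected members. It also names the 10 widest and 5 narrowest ranges, 3 genes on each side of each threshold, and up to 6 genes detected in the controls alone or the MXD3 lines alone. Alternatives were the detection thresholds, the probe that stands for a gene, the normalization and leaving out each array.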

Additional observations from a re-analysis of the deposited data

How the results depend on the processing

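The counts, the ranking and the spread stayed within 1.5 times of the values given under each alternative run. With 0.05 as the threshold for detected and 0.01 for undetected, 10421 genes were detected and 5374 undetected. With the brightest probe alone they were 9790 and 4232. Leaving out 1 of the 3 arrays gave 9973 to 10038 detected and 4568 to 4683 undetected genes. The other thresholds and leaving out an array both loosen the rules for the 2 classes, so these counts could only rise. With the other thresholds a gene whose detection p-values lay between 0.01 and 0.05 on all 3 arrays could be in both classes. Of the 30 brightest genes, 30 were shared with the ranking by raw intensities, by the series matrix values, by normalization of the 3 arrays alone and with an offset of 50, 26 with the mean over a gene's detected probes, and 29 to 30 with 1 array left out. The median SD of 0.198 became 0.157 on raw log2 intensities, which were not background-corrected, 0.199 with the 3 arrays normalized alone, 0.184 with an offset of 50, and 0.149 to 0.168 over pairs of arrays. Of the 40 lists, 1 changed its detected count and 3 their undetected count by over 1.5 times with the other thresholds: epithelium then had 6 detected members, and neural stem cells, oligodendrocytes and secreted matrix regulators had 6, 6 and 2 undetected ones. Without vector replicate 1, photoreceptors had 5 detected and neural stem cells 5 undetected members. Without vector replicate 2, MHC class I and antigen presentation had 5 undetected members. Without parental replicate 1, oligodendrocytes had 5 and secreted matrix regulators 2 undetected members. Of the 392 genes that the naming rule took, 246 moved by more than their SD on raw intensities, which hold the background, 191 with an offset of 50 and 47 with the 3 arrays normalized alone. Series matrix values, which fall to 0 or below for dim probes, could be taken for 282, of which 83 moved. Leaving out 1 of 3 arrays cannot move a mean by more than the SD, so it says nothing about the levels. No paired analysis was possible because the labels name no pairs of vector and parental samples. A single probe stands for 3923 of the 4225 undetected genes and for 14306 of all 16578.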

Other observations

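Detection was spread evenly over most chromosomes, with chromosome Y left out of these counts and runs. The detected share of a chromosome's measured genes ran from 48.9% of 1125 genes on chromosome 11, which holds large clusters of olfactory receptor genes, to 67.3% of 505 genes on chromosome 14. Chromosome 9, where the undetected stretch at 9p21 lies, had 63.5% of 669 genes detected. The longest runs of consecutive detected genes held 23 genes from NEDD9 to KIF13A and 20 genes from TRIM26 to VARS2, both on chromosome 6. These genes were chosen after their values were seen, and no test was made.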
